A study of Mus musculus with 6 samples.

Results

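Oxidative phosphorylation genes encode the proteins with which mitochondria turn the energy of food into ATP. Their RNA was compared between aged microglia of control mice and of mice in which the autophagy gene Atg7 was targeted for deletion. The genes were taken by name from the protein-coding genes of the count table. The rule took symbols beginning with Ndufa, Ndufb, Ndufc, Ndufs or Ndufv (complex I), Uqcr (complex III), Cox4 to Cox8 (complex IV), Atp5 (complex V, the ATP synthase) or mt- (encoded in mitochondrial DNA), together with Sdha, Sdhb, Sdhc and Sdhd (complex II) and Cyc1 (complex III). It gave 110 of the 55487 genes in the table, 97 of them nuclear and 13 mitochondrial. Complex I has 52 of these members, complex II has 4, complex III has 10, complex IV has 24 and complex V has 20. Ndufa4 and its paralog Ndufa4l2 carry a complex I name and were placed in complex IV. By their names the rule also took 8 assembly factors of complex I (Ndufaf1 to Ndufaf8), the supercomplex factor Cox7a2l, and Ndufb1-ps and Cox5b-ps, which are named as pseudogenes.

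The RNA came from microglia, the macrophages that reside in brain tissue, sorted from the cortex of 6 female mice (20 months old) as live CD11b-positive cells with an intermediate level of CD45. Controls were 3 Atg7-fl/fl mice, whose Atg7 alleles are flanked by loxP sites but intact, and knockouts were 3 Atg7-fl/fl;Cx3cr1-CreERT2 mice, in which a tamoxifen-dependent Cre recombinase is expressed from Cx3cr1, a gene active in microglia and other macrophages. Each library was made from more than 20k cells of 1 mouse. Since no control carried Cre, effects of the loss of Atg7 and of the Cre allele itself cannot be told apart. Neither the drug treatment nor the interval after deletion is given in the sources used here. The controls were littermates.

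Mitochondria carry out oxidative phosphorylation in the inner membrane. Complexes I and II feed electrons from NADH and succinate into ubiquinone, complex III passes them to cytochrome c, and complex IV hands them to oxygen. Complexes I, III and IV pump protons as they do so, and complex V uses the returning protons to make ATP. Complex II is entirely nuclear, whereas the others join nuclear subunits, imported from the cytosol, to subunits made inside the mitochondrion. Worn mitochondria are removed by autophagy, the pathway in which Atg7 acts.

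Atg7 itself stood at 65.7, 66.4 and 56.6 CPM (reads relative to library size, scaled by the TMM method) for controls 1 to 3 and 25, 26.5 and 23.7 CPM in knockout mice 1 to 3, a log2 fold change of -1.33 (SE 0.19, adjusted p = 0.0147, edgeR). Atg7 RNA was thus lower but not absent in the knockouts, and how complete the deletion was in these cells was not tested. Library totals were 39389527, 38798703 and 1254380 reads for the controls and 33129233, 3789208 and 21282335 reads for the knockouts, so control 3 and knockout 2 were shallow. In control 3 a count of 3 reads corresponded to 2.39 CPM, against 0.0762 CPM in control 1. Of the 12 microglial markers examined 12 were measured in the test, with summed levels of 66962 to 73220 CPM in control mice and 54312 to 60095 CPM in knockout mice. Of these markers 11 had a fitted value below 0, and 5 (41.7%) were lower in all knockouts, against 4.47% of all genes. At an unadjusted p under 0.05 (edgeR) 4 were lower, against 1.98% of all genes. Only Cx3cr1 was called lower (log2 fold change -1.17, SE 0.13, adjusted p = 0.00126, edgeR), as 1 of 2 genes called lower among all genes. Cx3cr1, from which Cre is expressed in the knockouts, had a mean of 10620 CPM in control mice and 4710 CPM in knockout mice. The mean sums that include it were 69733 and 57319 CPM. All 10 markers of border-associated macrophages had a fitted value above 0, with sums of 17.5, 41.5 and 87.2 CPM in control mice and 280, 176 and 68.1 CPM in knockout mice. With edgeR and limma voom 0 of them were called, while DESeq2 called 4 higher (Pf4, Ms4a7, Mgl2 and Clec10a). Summed neutrophil markers (7 of 8 tested, all above 0, 0 called with edgeR, DESeq2 or limma voom) were at 44.9, 363 and 479 CPM in control mice and 1977, 655 and 135 CPM in knockout mice. Summed monocyte markers (6 of 8 tested, all above 0) were at 10.9, 42.6 and 48.7 CPM and at 173, 71.4 and 25.6 CPM, with 0 called by edgeR or limma voom. These 3 lists were highest in knockouts 1 and 2, no marker of them was at 0 in every library, and their part in the results below was not tested. In bulk RNA, fewer cells of a type and less RNA per cell cannot be told apart.

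Reads cannot always be assigned between mitochondrial genes and the copies of mitochondrial DNA that lie in the nuclear genome, so the sequences that carry this problem come first. Of the 13 mitochondrial members 7 have an annotated copy in a nuclear gene that covers over 50% of their length at 97% identity or more. The copy Gm28437 is identical to mt-Co3, a core subunit of complex IV, over 783 aligned bases, and Gm28661 and Gm10925 are identical to mt-Co2 and mt-Atp6 over 681 and 678 bases. Gm10222 is identical to mt-Nd4l over 294 of its 297 bases, and Gm28439 to mt-Nd4 over 876 of its 1378 bases. Gm28438 has 1 mismatch to mt-Nd3 over 345 aligned bases. The copy Gm13340 has 37 mismatches to mt-Co1 over 1545 bases. The 60 bases from position 100 to 159 of mt-Co3 and its copy have the same letters, and the 60 bases from position 460 to 519 of mt-Co1 and its copy differ at 4 positions, written in capitals. The sequences are from GENCODE M21 transcripts, and positions are counted from 1 at the first base of the transcript.
mt-Co3: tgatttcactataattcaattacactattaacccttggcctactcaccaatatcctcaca
Gm28437: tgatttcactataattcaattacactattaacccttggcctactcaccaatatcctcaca
mt-Co1: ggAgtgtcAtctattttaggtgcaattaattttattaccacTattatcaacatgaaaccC
Gm13340: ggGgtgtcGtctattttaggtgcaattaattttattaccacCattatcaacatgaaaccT
The differences in the second pair are A462G, A468G, T501C and C519T, with the base of mt-Co1 first.

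Some nuclear members share promoter letters that the choice by name did not use. RefSeq promoters (GRCm38.p6, 250 bases before to 50 bases after the start) were matched for 77 of the 97 nuclear members, and 2 identifiers named Atp5o share a promoter, which left 76. Nuclear respiratory factor 1 (NRF1), an activator of respiratory chain genes, binds a GC-rich palindrome. Its core with 1 free base, GCGCANGCG, was found in 22 of the 76 members (28.9%) and in 7.03% of the 27025 genes with a listed promoter. The core GCGCATGCG, a special case of it, was in 10 members (13.2%) and in 1.95% of all genes. The letters CCGGAAG, bound by ETS factors such as GABPA, were in 19 members (25%, against 9.93%), AAGATGGC, bound by YY1, in 11 (14.5%, against 3.19%) and TCAAGGTCA, bound by the oestrogen-related receptor ERRA, in 2 (2.63%, against 0.466%). A gene counted where any promoter listed for it held the letters. All genes here means those with a listed promoter, whether or not they are expressed in microglia. No share matched for expression or for the GC content of promoters was computed, so the excess may not be particular to this family. Both strands were searched, and a match is a description of letters, not a bound site. The 10 members with the NRF1 core are shown because it is the motif best known for this gene family, as 30 bases each on the strand of the gene, with the core in capitals; where it lies on both strands, 10 letters are capital. They are at chr17:56717692-56717721 (+) for Ndufa11, chr2:36049328-36049357 (-) for Ndufa8, chr2:140170652-140170681 (+) for Ndufaf5, chr4:24897960-24897989 (+) for Ndufaf4, chr9:108936668-108936697 (+) for Uqcrc1, chr10:80406807-80406836 (-) for Uqcr11, chr5:115349101-115349130 (-) for Cox6a1, chr5:108434430-108434459 (-) for Atp5k, chr9:44920963-44920992 (-) for Atp5l and chr15:102671070-102671099 (-) for Atp5g2.
Ndufa11: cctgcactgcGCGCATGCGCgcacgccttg
Ndufa8: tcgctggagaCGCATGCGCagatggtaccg
Ndufaf5: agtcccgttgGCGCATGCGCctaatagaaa
Ndufaf4: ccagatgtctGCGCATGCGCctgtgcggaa
Uqcrc1: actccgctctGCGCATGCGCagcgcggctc
Uqcr11: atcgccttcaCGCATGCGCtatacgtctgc
Cox6a1: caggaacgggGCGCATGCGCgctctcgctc
Atp5k: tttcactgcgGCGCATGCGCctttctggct
Atp5l: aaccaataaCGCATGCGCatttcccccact
Atp5g2: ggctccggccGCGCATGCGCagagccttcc

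The transcripts of the respiratory chain and the ATP synthase differed little between the groups. With edgeR, 0 of the 104 members tested were called at an adjusted p under 0.05, against 0.0443% of the 15787 genes tested (7 genes, 5 higher and 2 lower in the knockouts). The adjusted p was 0.166 for Cox5a and 0.999 for each of the other 103 members. At an unadjusted p under 0.05, 4 members had higher values in the knockouts (Cox4i1, Ndufaf8, mt-Co3 and mt-Co2) and 1 had lower values (Cox5a), against 2.34% and 1.98% of all genes. DESeq2 called 1 member (0.526% of all genes were called) and limma voom 1 (0.095%), in both cases Cox5a, lower in the knockouts. Of the 104 members 98 had a fitted log2 fold change within 0.5 of 0, compared with 71.9% of all genes tested. That comparison was not matched for the level of the genes. The 6 members beyond were Cox5a, Cox7a1, Cyc1 and Ndufab1 below and Cox5b-ps and Ndufaf8 above. The median standard error of the members was 0.20 on the log2 scale. Another 6 members did not pass the filter on low counts and had no test. They were Cox4i2, Cox8b, Ndufa4l2, Cox7b2, Cox8c and a further identifier named Atp5o, of which the last 3 had 0 reads in every library.

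**Figure D1:**
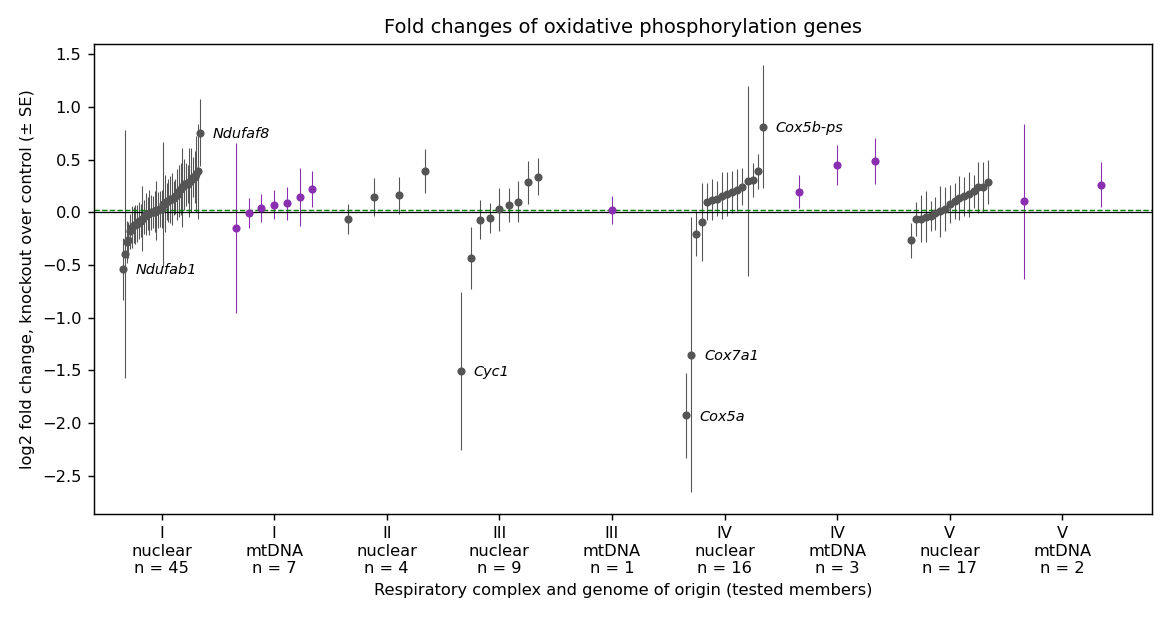
Log2 fold change of knockout over control (edgeR, y axis) with its standard error for the 104 members tested, ordered within each complex and genome of origin (x axis; grey nuclear, purple mitochondrial DNA). Most members lie between -0.5 and 0.5, and Cox5a (-1.93) and Cyc1 (-1.50) lie far below 0.

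The summed level of the nuclear members was 7233, 7815 and 6091 CPM in control mice 1 to 3 and 7256, 7814 and 7208 CPM in knockout mice 1 to 3. The sum over the mitochondrial members was 7428, 8594 and 6166 CPM in control mice and 7749, 8219 and 7663 CPM in knockout mice. Control 3, a shallow library, was the lowest in both sums, and the other libraries of the groups overlapped. As a share of all reads, the mitochondrial members took 0.717%, 0.824% and 0.626% in the controls (mean 0.722% ± 0.0992, SD, n = 3) and 0.790%, 0.835% and 0.775% in the knockouts (mean 0.800% ± 0.0314, SD, n = 3), so the groups overlapped. The ratio of nuclear to mitochondrial reads was 0.974, 0.909 and 0.988 in the controls and 0.936, 0.951 and 0.941 in the knockouts, and again the ranges overlapped. These mitochondrial sums, shares and ratios include the 7 members with a nuclear copy, whose reads may be counted in part at the copy. The 6 members without such a copy summed to 5137, 5799 and 4297 CPM in control mice. In knockout mice they summed to 5212, 5381 and 5096 CPM. The ribosomal RNAs of mitochondria, which are not members, took 0.256%, 0.231% and 0.243% of reads in the controls and 0.313%, 0.330% and 0.262% in the knockouts. As shares of reads their groups did not overlap, though knockout 3 lay close to control 1. On the TMM scale the groups overlapped. There mt-Rnr2, which gave most of these reads, was at 2494, 2250 and 2172 CPM in control mice and 2885, 2998 and 2408 CPM in knockout mice. mt-Rnr1 was at 159, 164 and 220 CPM against 182, 250 and 184 CPM. With 3 mice against 3, the smallest two-sided p of an exact permutation test is 0.1.

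**Figure D2:**
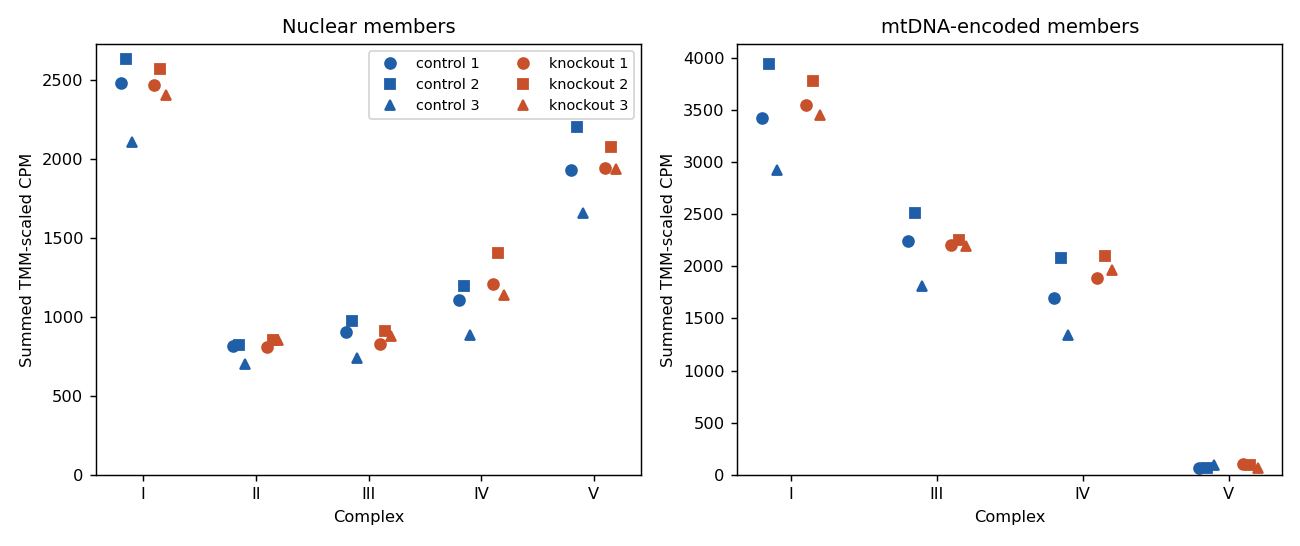
Summed TMM-scaled CPM of the members of each complex (y axis) in every library, for nuclear members (left) and members encoded in mitochondrial DNA (right), with controls in blue and knockouts in orange. Control 3 (blue triangle) is the lowest library in all sums except that of complex V in mitochondrial DNA, and the nuclear sums of complex I run from 2107 to 2632 CPM over the 6 libraries.

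The small positive medians of the members rested on that control. The median log2 fold change was 0.10 for the 91 nuclear members tested and 0.10 for the 13 mitochondrial members, beside 0.02 for all genes tested, and 71 members (68.3%) had a value above 0 against 52.5% of all genes. Control 3 was the lowest of the 6 libraries in 69 of the 104 members (66.3%) and in 40.7% of all genes. In the fit without control 3 the median was -0.02 for nuclear and 0.02 for mitochondrial members, with 47 members above 0 and 57 below. Of the 17399 genes tested in that fit 51.2% lay above 0, and their median was 0.01. The nuclear medians of complexes I to V were then -0.05, 0.02, -0.14, 0.06 and -0.02. Groups that did not overlap were found in 8 members (7.69%), against 11.1% of all genes. Higher in all knockouts were Ndufa2, Ndufa6, Ndufb5, Cox4i1 and Cox6c (6.59% of all genes), and lower in all knockouts were Ndufa1, Ndufa7 and Cox5a (4.47% of all genes). Ndufa7, Ndufb5 and Cox6c were named after their values were seen.

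Complex I, the entry point for electrons from NADH, had 45 nuclear members tested, with a median log2 fold change of 0.04, and 29 lay above 0 and 16 below. The 7 nuclear core subunits, which bind NADH, flavin and iron-sulfur clusters, had fitted log2 fold changes from -0.26 (Ndufs7) to 0.14 (Ndufv1, named after its value was seen). Ndufs7, which carries the last iron-sulfur cluster before ubiquinone, was at 89.0, 110 and 117 CPM in control mice and 90.1, 76.6 and 96.0 CPM in knockout mice. Its groups overlapped, with controls 2 and 3 above the knockouts (log2 fold change -0.26, SE 0.17). The 29 accessory subunits, which surround and stabilise this core, had a median of 0.03.

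Among accessory subunits, Ndufab1, the mitochondrial acyl carrier protein that also serves lipoic acid synthesis, was at 32.7, 34.3 and 24.4 CPM in control mice and 22.5, 29.9 and 12.5 CPM in knockout mice. Knockouts 1 and 3 lay below all controls and knockout 2 among them (log2 fold change -0.54, SE 0.29). Its log2 fold change was between -0.27 and -0.83 with 1 library left out and -0.94 (SE 0.29) without both shallow libraries, where the adjusted p was 0.384 with edgeR, and -0.84 with limma voom (adjusted p = 0.322). Ndufa1, a small membrane subunit, was at 41.8, 42.1 and 39.3 CPM against 37.9, 33.2 and 30.6 CPM, and each knockout lay below each control (-0.28, SE 0.20). Ndufa2 was at 59.6, 59.2 and 46.4 CPM against 65.7, 73.2 and 62.2 CPM, and each knockout lay above each control (0.27, SE 0.18). Ndufa6, which binds Ndufab1 in the assembled complex, was at 81.9, 85.4 and 51.9 CPM against 91.3, 97.7 and 90.8 CPM, also without overlap (0.34, SE 0.19). The log2 fold changes of Ndufa2 and Ndufa6 were 0.16 and 0.14 without control 3. The highest nuclear level of the complex per kilobase of exon was that of Ndufc2, with a control mean of 130 CPM per kilobase, and the median of the 45 was 23.1.

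The 8 complex I assembly factors had a median log2 fold change of 0.28, with 6 above 0 and 2 below, and 0.14 without control 3. Ndufaf8, a partner of the assembly factor Ndufaf5, had the smallest p of them. It was at 16.7, 14.6 and 7.86 CPM in control mice and 21, 32.7 and 16.6 CPM in knockout mice. Knockout 3 lay level with control 1, and the highest value came from the shallow knockout 2 (0.76, SE 0.32). Without both shallow libraries its log2 fold change was 0.26.

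Complex II, succinate dehydrogenase, is shared with the citric acid cycle. Its flavoprotein Sdha, which binds succinate, was at 388, 371 and 415 CPM in control mice and 396, 337 and 390 CPM in knockout mice (log2 fold change -0.06, SE 0.14). The iron-sulfur subunit Sdhb was at 175, 192 and 101 CPM against 188, 232 and 198 CPM (0.39, SE 0.21), and the low value of control 3 was the one apart, since the log2 fold change without it was 0.15. The membrane anchors Sdhc and Sdhd stood at log2 fold changes of 0.16 and 0.14 (SE 0.18 for each). In all 4 subunits the groups overlapped.

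Complex III contains 3 subunits that carry electrons, and the nuclear pair among them had fitted values below 0. Cyc1, which encodes cytochrome c1, the subunit that passes electrons to cytochrome c, was at 53.3, 59.3 and 8.64 CPM in control mice 1 to 3 and 13.6, 23.4 and 9.07 CPM in knockout mice 1 to 3. The deep controls 1 and 2, with 2027 and 2205 reads, lay above each knockout, whereas control 3 was the lowest library of all. That value rested on 11 reads, and its 95% exact Poisson interval of 4.31 to 15.5 CPM, which covers counting error only, did not reach the other controls. With all 6 libraries the log2 fold change was -1.50 (SE 0.75, adjusted p = 0.999, edgeR). Without control 3, Cyc1 fell by 1.95 on the log2 scale (SE 0.31, adjusted p = 0.0346, edgeR), in a fit that called 0.201% of genes lower, and without both shallow libraries the log2 fold change was -2.32 (SE 0.24, adjusted p = 0.0113, edgeR), in a fit that called 0.178% of genes lower. Control 3 thus decided whether Cyc1 was called, and it went against the other controls. Over the alternative settings tried with all 6 libraries, the adjusted p lay between 0.0745 (limma voom) and above 0.999 (DESeq2).

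The Rieske protein Uqcrfs1, the iron-sulfur subunit that feeds cytochrome c1, was at 17.9, 20.0 and 13.4 CPM in control mice and 12.1, 10.6 and 15.6 CPM in knockout mice (log2 fold change -0.44, SE 0.29). The groups overlapped through knockout 3. mt-Cytb, which encodes cytochrome b and was the mitochondrial member with the highest level per kilobase, was at 2238, 2512 and 1808 CPM against 2201, 2251 and 2191 CPM (0.02, SE 0.13). Of the nuclear subunits without a redox centre, Uqcrc1, a core protein, was at 408, 445 and 361 CPM against 376, 386 and 407 CPM (-0.06, SE 0.14), and the hinge protein Uqcrh was at 91.1, 86.0 and 73.1 CPM against 89.2, 122 and 107 CPM (0.34, SE 0.17). Their groups overlapped. The accessory subunits Uqcrb and Uqcr10 lay at 0.28 (SE 0.21) and 0.10 (SE 0.19) on the same scale. In the controls Cyc1 had a mean of 18.8 CPM per kilobase of exon, the second lowest of the 9 nuclear subunits after Uqcrfs1 (12.5), and the highest was Uqcr11 (102).

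**Figure D3:**
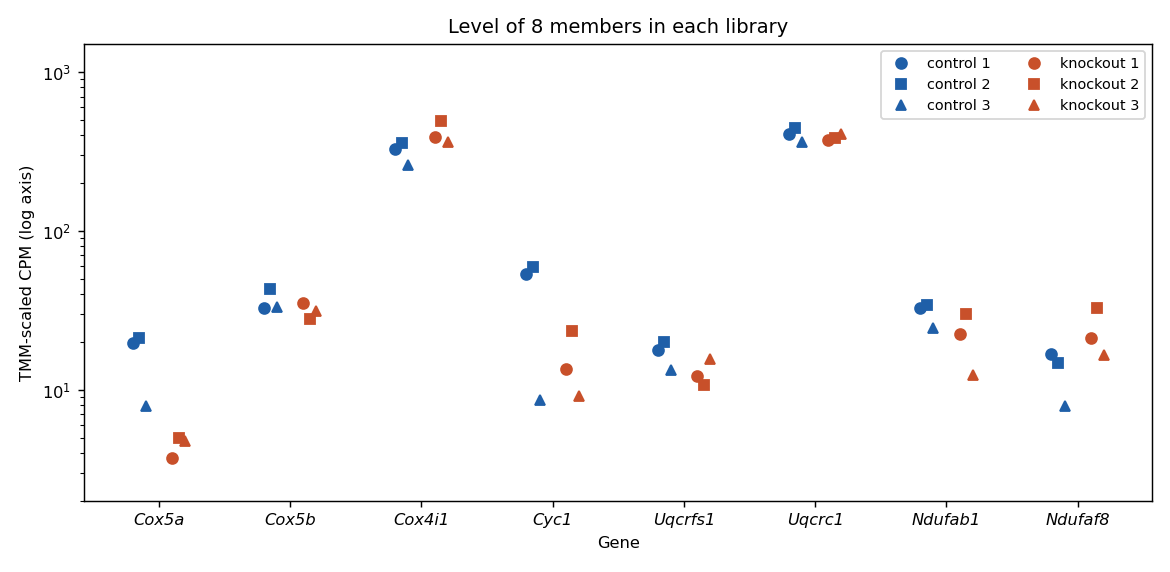
TMM-scaled CPM on a log axis (y axis) of 8 nuclear members (x axis) in each library, with controls in blue, knockouts in orange and one symbol per replicate number. Cox5a has each knockout below each control, and for Cyc1 control 3 (blue triangle) lies below all knockouts.

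Complex IV, cytochrome c oxidase, had the member with the smallest p. Cox5a, a nuclear subunit on the matrix side of the complex that joins Cox4i1 early in assembly, was at 19.7, 21.1 and 7.86 CPM in control mice (mean 16.2 ± 7.29, SD, n = 3) and 3.70, 4.94 and 4.79 CPM in knockout mice (mean 4.47 ± 0.675, SD, n = 3). Each knockout lay below each control, and control 3 lay nearest to them, with 10 reads and a 95% exact Poisson interval of 3.77 to 14.5 CPM that includes 2 of the knockout values. The fitted level was 3.80-fold lower in the knockouts (log2 fold change -1.93, SE 0.40, adjusted p = 0.166, edgeR), which missed the threshold over all genes.

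Cox5a passed the threshold in some other fits of the same counts and missed it in others. The adjusted p was 0.000662 with DESeq2 (log2 fold change -1.96), 0.0431 with limma voom (-2.23), 0.00187 with edgeR and no filter on low counts (-1.95; 0.308% of genes called), 0.00623 without control 3 (-2.22; 0.287% called) and 0.0204 without both shallow libraries (-2.28; 0.232% called). Leaving out any other library gave log2 fold changes of -1.69 to -2.01 and adjusted p-values from 0.435 to above 0.999 with edgeR. With all 6 libraries Cox5a also missed the threshold under the other scalings, the stricter filter and the replicate block. The same held for protein-coding genes alone, with mitochondrial genes left out and without the robust option. These adjusted p-values ran from 0.0991 (stricter filter) to 0.449 (without the robust option) with edgeR. In the GENCODE M21 annotation 12.8% of the exonic bases of Cox5a overlap the gene Gm26631, which itself was at 13.1, 12.6 and 7.86 CPM in control mice and 15.7, 12.7 and 12.4 CPM in knockout mice. No copy of Cox5a or Cyc1 at 97% identity over 100 bases or more was found among other transcripts. The promoter of Cox5a, from 250 bases before the start to the base before it in GRCm38.p6 (chr9:57520982-57521231, plus strand), is shown because the gene stood apart. None of the 5 motifs searched is in these letters, which says nothing of the factors themselves.
Cox5a promoter: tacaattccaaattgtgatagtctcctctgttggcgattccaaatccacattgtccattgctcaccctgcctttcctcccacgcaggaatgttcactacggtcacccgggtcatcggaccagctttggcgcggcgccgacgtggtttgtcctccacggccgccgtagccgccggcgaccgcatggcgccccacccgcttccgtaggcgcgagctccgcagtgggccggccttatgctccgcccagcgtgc

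The other nuclear subunits around the catalytic core of complex IV did not share this difference in level. Of the 11 subunits present in most tissues 9 had a log2 fold change above 0, and their median was 0.16 (0.01 without control 3). Cox4i1, the largest nuclear subunit, was at 327, 357 and 261 CPM in control mice and 389, 490 and 361 CPM in knockout mice, and each knockout lay above each control (log2 fold change 0.39, SE 0.17, adjusted p = 0.999, edgeR). Its log2 fold change was 0.26 without control 3 and 0.13 without both shallow libraries. Cox5b, a zinc-binding subunit that is not a homologue of Cox5a, was at 32.7, 43.1 and 33.0 CPM against 35.2, 28.1 and 31.5 CPM, with overlap (-0.20, SE 0.21). Cox7a2l, which links complexes III and IV into supercomplexes, was at 177, 142 and 137 CPM against 172, 201 and 191 CPM, with overlap through knockout 1 (0.30, SE 0.16). Cox5b-ps was at 2.50, 2.61 and 1.57 CPM against 5.59, 4.42 and 2.42 CPM (0.81, SE 0.58), but its transcript of 390 bases has 3 mismatches to Cox5b, so reads of the pair may be divided between them. In the controls Cox5a had the lowest level per kilobase of exon of the 11 subunits (7.73 CPM per kilobase, and 2.13 in the knockouts), and Cox4i1 had the highest (203 in the controls and 267 in the knockouts).

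Several subunits of complex IV have tissue isoforms, and these microglia contained mostly reads of the widely expressed form. Mean Cox4i1 was 1124-fold above Cox4i2, its lung isoform, per kilobase of exon over all 6 libraries, where Cox4i2 had at most 17 reads in any library. Cox8a was 634-fold above Cox8b, the heart and muscle isoform, which had at most 8 reads. Cox6b1 was 115-fold above the testis isoform Cox6b2, Cox7a2 was 17.9-fold above Cox7a1 (47.9-fold without control 3) and Cox6a1 was 14.9-fold above Cox6a2, both heart and muscle isoforms. Cox6a2 was at 8.55, 13.2 and 6.29 CPM in control mice and 9.62, 8.31 and 9.25 CPM in knockout mice, with overlap (log2 fold change -0.09, SE 0.37). Cox7a1 was at 0.263, 0.484 and 4.71 CPM against 0.266, 0.779 and 0.558 CPM, and its fitted value of -1.35 (SE 1.31) came from 6 reads in control 3, without which it was 0.40.

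**Figure D4:**
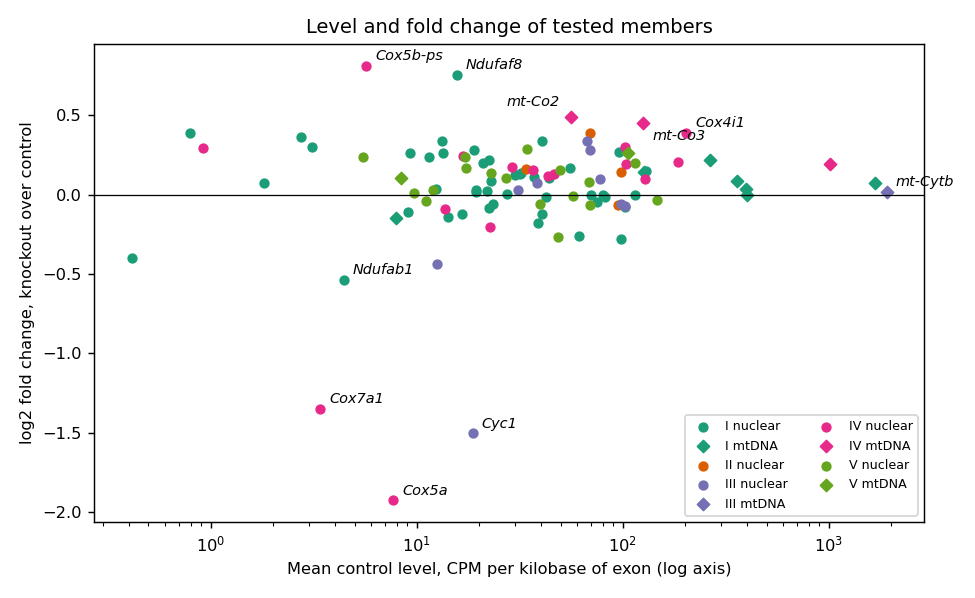
Log2 fold change of knockout over control (edgeR, y axis) against the mean control level in CPM per kilobase of exon (x axis, log scale) for the tested members, coloured by complex, with circles for nuclear members and diamonds for members encoded in mitochondrial DNA. Cox5a, Cyc1 and Cox7a1 lie furthest below 0, and the members of highest level lie near 0.

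Complex V, the ATP synthase, had 17 nuclear members tested, with log2 fold changes between -0.27 and 0.29 and a median of 0.08. In the F1 head, the catalytic beta subunit Atp5b was at 275, 357 and 247 CPM in control mice and 296, 265 and 279 CPM in knockout mice (-0.06, SE 0.16). The alpha subunit Atp5a1, with the highest nuclear level of the complex at a control mean of 147 CPM per kilobase of exon, was at 441, 517 and 425 CPM against 455, 440 and 455 CPM (-0.04, SE 0.14). Groups of both overlapped. In the central stalk that turns within the head, the delta subunit Atp5d was at 85.3, 105 and 91.9 CPM against 72.4, 88.6 and 74.4 CPM (-0.27, SE 0.17), the epsilon subunit Atp5e was at 64.7, 69.5 and 46.4 CPM against 66.8, 95.1 and 61.8 CPM (0.29, SE 0.21), and the gamma subunit Atp5c1 had a value of 0.20 (SE 0.15). In the membrane, where protons return, the 3 genes for subunit c (Atp5g1, Atp5g2 and Atp5g3) had a median log2 fold change of 0.14 and Atp5l and Atp5k, subunits g and e, had 0.24 (SE 0.24) and -0.06 (SE 0.22). Atpif1, the inhibitor that blocks the synthase from running backwards and is not a member, was at 35.0, 35.5 and 39.3 CPM against 38.9, 40.5 and 34.2 CPM (0.05, SE 0.20).

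Mitochondrial DNA encodes 7 subunits of the membrane arm of complex I, cytochrome b, 3 catalytic subunits of complex IV and 2 membrane subunits of complex V. The members with most reads differed little. mt-Nd1 was at 1593, 1879 and 1365 CPM in control mice and 1631, 1847 and 1604 CPM in knockout mice (log2 fold change 0.07, SE 0.14), and mt-Co1, the subunit that reduces oxygen, was at 1563, 1942 and 1199 CPM against 1671, 1887 and 1827 CPM (0.19, SE 0.16). In both, control 2 was the highest library and control 3 the lowest. mt-Nd2, mt-Nd3, mt-Nd4, mt-Nd5 and mt-Nd6 had log2 fold changes from -0.00 to 0.22, with overlap in each. Of these, mt-Nd3 and mt-Nd4 have the nuclear copies named above, as does mt-Co1. mt-Atp8 was near the floor in the shallow libraries, with 1.08 to 2.36 CPM over the 6 libraries and a fitted log2 fold change of 0.10 (SE 0.74).

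The 4 mitochondrial members whose nuclear copies are identical over nearly the whole gene, mt-Co3, mt-Co2, mt-Atp6 and mt-Nd4l, are described apart. mt-Co3 was at 95.7, 97.6 and 104 CPM in control mice and 155, 155 and 96.1 CPM in knockout mice. Knockouts 1 and 2 were high and knockout 3 lay at the level of the controls (log2 fold change 0.45, SE 0.19, adjusted p = 0.999, edgeR). mt-Co2, the subunit that takes electrons from cytochrome c, was at 36.3, 41.7 and 37.7 CPM against 63.8, 60.8 and 38.4 CPM, with the same libraries high (0.49, SE 0.22, adjusted p = 0.999, edgeR). mt-Atp6, subunit a of the ATP synthase, was at 66.2, 61.5 and 88.8 CPM against 105, 91.9 and 61 CPM, with knockouts 1 and 2 highest and knockout 3 lowest (0.26, SE 0.22). mt-Nd4l, a membrane arm subunit of complex I, had few reads and was at 1.24, 1.13 and 4.71 CPM against 1.45, 2.08 and 1.77 CPM, with control 3 apart on 6 reads (-0.15, SE 0.81, and 0.54 without control 3). Knockouts 1 and 2 were also the libraries with the highest summed markers of border-associated macrophages, monocytes and neutrophils, as given above, and the part of those cells in these values was not tested.

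The nuclear copies of these genes carried about as many reads as the genes. The mean ratio of copy to gene over the 6 libraries was 1.36 for Gm28661 and mt-Co2, 0.942 for Gm28437 and mt-Co3, 1.04 for Gm10925 and mt-Atp6 and 0.843 for Gm10222 and mt-Nd4l. For Gm13340 and mt-Co1, which differ at bases such as those shown above, it was 0.0324. Low ratios were also found for copies with few or no mismatches. The ratio was 0.0242 for Gm28439, identical to mt-Nd4 over 876 bases, and 0.0887 for Gm28438, with 1 mismatch to mt-Nd3. Reads of mt-Co1 and Gm13340 that span none of their differences cannot be told apart. The search found matches to mt-Co1 in 2 other genes, of which only Gm13340 was compared here. Gm28437 stood at 85.2, 87.6 and 120 CPM in control mice and at 153, 121 and 89.5 CPM in knockout mice (log2 fold change 0.32, SE 0.21), with knockouts 1 and 2 high as for mt-Co3. Gene and copy added together gave 181, 185 and 224 CPM in control mice and 308, 276 and 186 CPM in knockout mice for mt-Co3, with knockout 3 between controls 2 and 3. The levels of mt-Co2, mt-Co3, mt-Atp6 and mt-Nd4l are therefore uncertain, since reads of identical sequence may be divided between the gene and its copy. Those of mt-Nd3, mt-Nd4 and mt-Co1 may be affected in the same way where gene and copy have the same letters. In the controls mt-Co2, mt-Co3 and mt-Co1 had means of 56.4, 126 and 1015 CPM per kilobase. Whether reads that match both places were left out of the counts was not tested, so the sum of gene and copy may also be too low. The median log2 fold change was 0.19 over the 7 mitochondrial members with an annotated copy and 0.05 over the 6 without, and 0.42 and -0.05 when control 3 was left out. Copies outside the annotation were not searched. Among the 6, mt-Atp8 shares 21.1% of its exonic bases with mt-Atp6.

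**Figure D5:**
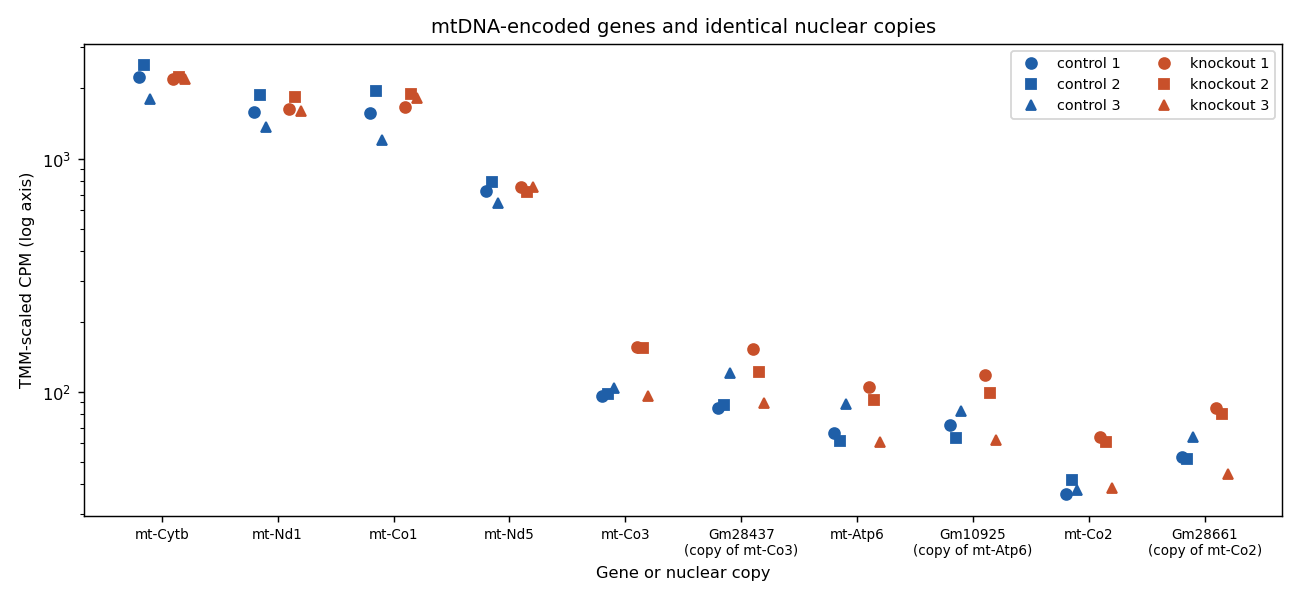
TMM-scaled CPM on a log axis (y axis) of 7 genes of mitochondrial DNA and of 3 of the identical nuclear copies (x axis) in each library, with controls in blue and knockouts in orange. Gene and copy stand at like levels for mt-Co3, mt-Atp6 and mt-Co2, and knockouts 1 and 2 (orange circle and square) are the 2 highest libraries in each of these 6.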

How the data were processed

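RNA of sorted cortical microglia was sequenced from 6 mice, 3 controls and 3 knockouts, which the labels number as separate biological replicates. Per the labels' protocols, cDNA was made from total RNA with an ultra-low-input kit, sheared and amplified by PCR without any mention of molecular identifiers, so intervals and floors cover counting error only. The deposited table gives raw counts of reads for each gene, in whole numbers, as the authors' processing left them; STAR, featureCounts and the genome build GRCm39 are named, per the submitters' processing notes. Whether counting used strand is not given here by any source. Of 55774 rows, 287 that repeated an identifier were left out, and 0 rows named no gene. Identifiers were matched to GENCODE M21, an annotation of the preceding build (55141 of 55487 found), for exonic lengths, overlaps and transcript sequences, so gene coordinates are not printed. Levels per kilobase divide CPM by the union of exons.

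Groups were compared on the counts by edgeR 4.0.16 (R 4.3.3): default filter on low counts, TMM scaling, a robust quasi-likelihood F-test with the group as the only term, two-sided, and Benjamini-Hochberg adjustment over the 15787 genes tested, called at an adjusted p under 0.05. Log2 fold changes are knockout over control, and SE is the coefficient's size over the root of F. DESeq2 1.42.0 and limma 3.58.1 (voom) were alternatives, with other scalings, filters and left-out libraries. The DESeq2 result for the monocyte markers is not reported here. Nuclear copies were found with BLAST+ 2.17.0. The NRF1 letters were shortened to the cores given after longer forms of the motif had been searched and their counts seen. The steps were tested on simulated data. Members named are all mitochondrial ones, in each complex up to 3 nuclear members per direction with the smallest p, the one with the highest level per kilobase, complex II and the isoform pairs of complex IV; others are marked. The members and all lists were chosen with earlier results of these data known. Numbers were not taken as pairs, since no label says that same-numbered mice share a litter or day. Deviations of same-numbered mice from their group means had correlations of 0.30, -0.22 and -0.06. With 3 libraries per group, of which control 3 and knockout 2 were shallow, these values cannot exclude a pairing. A fit with the replicate number as a block is given below. Between libraries of 1 group, chi-square over its degrees of freedom was at least 39.4, so none was a repeat of another within counting noise.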

Additional observations from a re-analysis of the deposited data

How the results depend on the processing

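Among all genes 5 were called higher and 2 lower. The counts were 60 and 42 with no filter, 49 and 34 with DESeq2, 9 and 6 with limma voom, 1 and 1 without the robust option, and 9 and 30 without both shallow libraries. With the replicate block they were 16 and 9, and 0 members were called. Leaving out 1 library at a time gave 1 to 15 higher and 1 to 35 lower, the most of each without control 3. Members called lower numbered 1 (Cox5a) with no filter, DESeq2 or limma voom, 2 (Cox5a and Cyc1) without both shallow libraries, and 0 to 2 with 1 library left out. Members called higher numbered 0 under each alternative. Over the alternatives the median log2 fold change lay between -0.06 and 0.17 for nuclear and between -0.01 and 0.20 for mitochondrial members, and the mean share of reads in mitochondrial members was 0.0295 to 0.129 percentage points higher in the knockouts. Of 927 values for 50 named members under 19 alternatives, 901 moved by less than the spread between replicates and kept their side of the threshold, 19 moved by more, 7 passed the threshold, and 0 called values changed sign. Depth limits the genes with few reads in control 3 (1254380 reads), where 3 reads are 2.39 CPM.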

Other observations

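Genes that build and supply the respiratory complexes were examined from lists made outside the member rule. With edgeR, DESeq2 and limma voom alike, 0 of the 214 genes tested in 11 such lists were called. At an unadjusted p under 0.05 edgeR gave 1 of the 214 higher and 5 lower, against 2.34% and 1.98% of all genes. The assembly factors of complex IV, which insert copper and haem and hold mitochondrial subunits during assembly, had 15 of 23 genes above 0 and a median log2 fold change of 0.05. Those of complex III had 5 of 6 above 0 (median 0.24, and 0.12 without control 3), those of complex II 1 of 4 (median -0.04), and those of complex I outside the Ndufaf genes 5 of 10 (median -0.01). The genes for ubiquinone synthesis and cytochrome c, the mobile carriers between the complexes, had 5 of 14 above 0 (median -0.03).

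Of the 5 assembly factors of the ATP synthase, Tmem70, which helps build the c ring, was at 19.3, 12.9 and 5.50 CPM in control mice and 5.77, 7.79 and 6.28 CPM in knockout mice (log2 fold change -1.01, SE 0.42). Atpaf1, a chaperone of the F1 beta subunit, was at 17.2, 15.2 and 9.43 CPM against 5.62, 12.5 and 5.25 CPM (-0.93, SE 0.40). In both, controls 1 and 2 were the highest libraries, and control 3 was the lowest library for Tmem70 and lay among the knockouts for Atpaf1. The adjusted p was 0.999 for each with edgeR.

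The ribosome of mitochondria, which translates the 13 mitochondrial members, had 48 of 77 genes above 0 and a median of 0.08, which was 0.01 without control 3. The enzymes of the citric acid cycle, which supply NADH and succinate, had 12 of 17 above 0 and a median of 0.11 (0.01 without control 3). Idh3a, a subunit of isocitrate dehydrogenase, was at 78.5, 72.3 and 64.4 CPM against 98.3, 90.1 and 84.3 CPM, with each knockout above each control (0.34, SE 0.17). The genes for replication, transcription and RNA handling of mitochondrial DNA had 10 of 22 above 0 (median -0.04, and -0.11 without control 3). Mgme1, a nuclease that acts in the replication of that DNA, was at 44.3, 33.8 and 42.4 CPM against 36.1, 21.6 and 23.9 CPM, with overlap through knockout 1 (-0.55, SE 0.24). Import and cristae genes had 13 of 26 above 0 (median -0.01, and -0.14 without control 3). Of the nuclear regulators of respiratory genes 9 of 10 tested had a value below 0 (median -0.25). The one above 0 was Ppara, a nuclear receptor that activates fatty acid oxidation genes, with 2, 3 and 1 reads in control mice and 14, 6 and 29 reads in knockout mice. It was at 0.0526, 0.0807 and 0.786 CPM against 0.414, 1.56 and 1.35 CPM, with overlap through knockout 1 and control 3 (log2 fold change 3.27, SE 1.38, adjusted p = 0.999 with edgeR), and it was the gene with the smallest unadjusted p among those above 0. Among those below 0, Pprc1, a coactivator that works with NRF1, was at 40.6, 44.9 and 40.1 CPM against 28.4, 19.5 and 33.0 CPM, and each knockout lay below each control (-0.63, SE 0.23, adjusted p = 0.999 with edgeR). Nrf1 itself was at 61.7, 48.6 and 67.6 CPM against 48.9, 37.1 and 57.7 CPM, with overlap (-0.29, SE 0.21), and was named after its value was seen.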
